A study of Mus musculus with 2 samples.

Results

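The genes described here encode collagens, laminins, integrins, Adamts proteases and Adamts-like proteins, matrix metalloproteases (Mmp) and tissue inhibitors of metalloproteases (Timp). They were taken by gene symbol alone, which selected 137 of the 21887 protein-coding genes of the RefSeq mouse annotation (GRCm38.p6). Of these, 44 were collagen chains, 11 laminin chains, 18 integrin alpha subunits, 8 integrin beta subunits, 19 Adamts proteases, 5 Adamts-like proteins, 23 Mmp proteases and 4 Timp inhibitors. Another 5 carry a matching symbol but were not counted in these families (Itgb3bp, Itgb1bp1, Itgb1bp2, Itgbl1 and Itgb2l).

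DNA methylation had been measured by whole-genome bisulfite sequencing in 2 libraries of sorted cells from the mouse pancreas at E14.5. One library came from Ngn3eGFP/+ (heterozygous) cells, labelled islet progenitors, and the other from Ngn3eGFP/eGFP (null) cells, labelled endocrine progenitors. Ngn3, now named Neurog3, is the transcription factor that sets off the formation of pancreatic endocrine cells. Cells of both groups carried the eGFP reporter at this locus and were sorted for it, and no wild-type cells were compared. The background was mixed, over 95% ICR with under 2.5% each of C57Bl/6 and 129svev. Each genotype had 1 library, so differences were not checked in replicates and p-values are absent. How many embryos were pooled for a library is not stated in the sources. The labels state about 400000000 reads per library, and the coverage behind each region is unknown. The authors' deposited table names the gene nearest to each region that differed, in one list for lower and one for higher methylation in null cells (the lower list and the higher list). Levels of methylation, the places of the regions and how many there were per gene are not in it. A name therefore does not tell whether the region lay in the gene, at its start or far from it. Because the table holds no expression values, the labelled cell type could not be checked against its markers.

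Collagens and laminins build the extracellular matrix. Collagen IV and the laminins form the networks of the basement membrane, the thin sheet under epithelia and around vessels. Integrins are alpha and beta heterodimers in the cell membrane that hold cells to these proteins and signal inward. Adamts and Mmp enzymes cut matrix proteins, and Timp proteins inhibit Mmp enzymes. In the developing pancreas the epithelium that gives rise to endocrine cells lies on a basement membrane, with mesenchyme on its other side.

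All members that the table names were in the higher list, that of genes next to regions with more methylation in null cells. The higher list held 26 of the 137, or 19.0% (exact Clopper-Pearson 95% interval 12.8 to 26.6%, counting error only), against 12.1% of all protein-coding genes. The lower list held 0 of the 137 (0 to 2.66%), against 1.51% of all protein-coding genes. The named genes were 14 of 55 matrix chains (25.5%), 6 of 26 integrin subunits (23.1%) and 6 of 51 proteases and inhibitors (11.8%). Those last 6 were all Adamts or Adamts-like genes. No Mmp gene, no Timp gene and none of the 5 other symbol matches was in either list. The 26 named genes lay on 17 of the 20 chromosomes that hold a member.

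The named members were long genes. Their median length was 117 kb, with a range of 45.7 to 915 kb. The 111 members in neither list had a median of 35.9 kb and a range of 3.88 to 636 kb, which overlaps that of the named ones. Across all protein-coding genes, 38.4% of the longest length decile and 1.92% of the shortest were in the higher list. Of the members, 34.3% (47 genes) were in the longest decile. When each member was given the share of all genes in its own length decile, the average was 21.0%, equal to 28.7 genes of 137. The observed 26 is close to that figure, so the share of members in the higher list was near the background for genes of these lengths. For the lower list the same average was 2.64%.

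**Figure D1:**
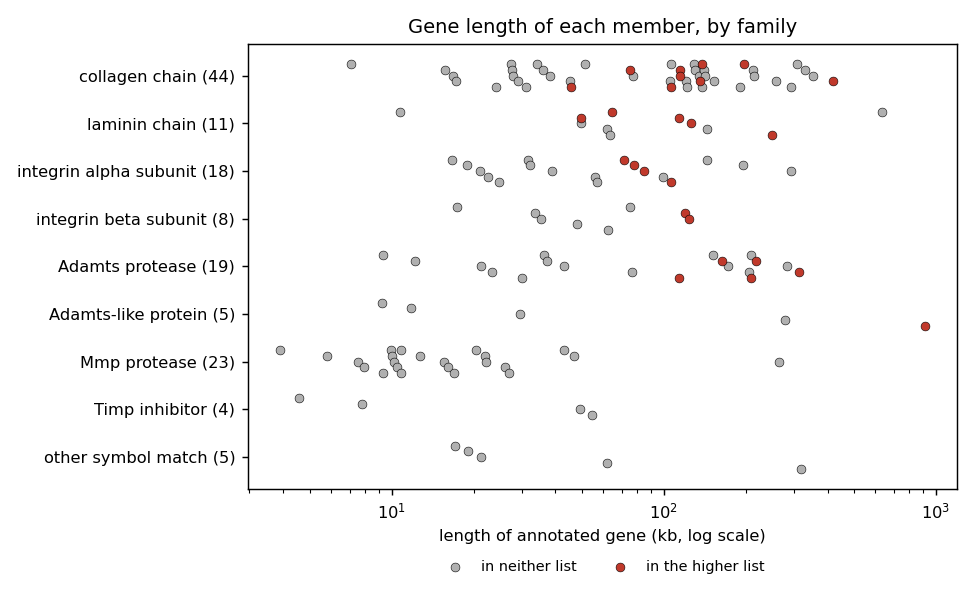
Length of each of the 137 member genes in kb on a log axis, with 1 row per family and the number of genes in parentheses. Red points are in the higher list and grey points in neither. All 26 red points lie at or above 45.7 kb, and the Mmp and Timp rows hold none.

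Nearly all named members fell in the longest 2 deciles of gene length. In the longest decile 17 of 47 members were in the higher list (36.2%, interval 22.7 to 51.5%), against 38.4% of all genes there. In the ninth decile 7 of 17 were (41.2%, interval 18.4 to 67.1%), against 21.0%. In the 8 shorter deciles together 2 of 73 were (2.74%, interval 0.334 to 9.55%), against 7.68%. Col17a1 and Lamb3 were those 2. Weighted to the members' own deciles, the share of all genes in those 8 shorter deciles was 9.71%, just above the upper end of the members' interval. Joining these 8 deciles was not planned, so this comparison is a description. In the longest 2 deciles the intervals covered the share of all genes.

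**Figure D2:**
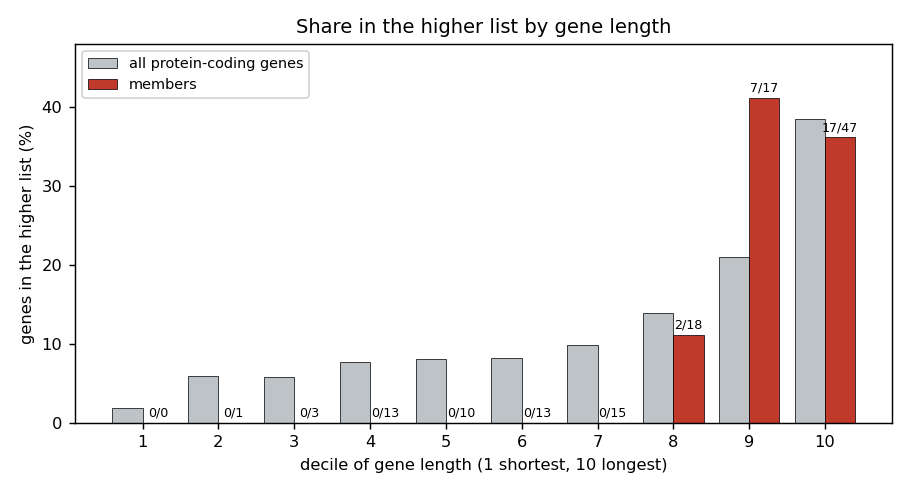
Percent of genes in the higher list by decile of gene length, from 1 (shortest) to 10 (longest). Grey bars are all protein-coding genes and red bars the members, with the number named and the number of members above each; decile 1 holds no member.

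Among the families, laminins had the highest share. Of the 11 laminin chains 5 were in the higher list, which is 45.5% with an interval of 16.7 to 76.6%. The average for genes of their lengths was 26.4%, or 2.91 genes, inside that interval. Collagens had 9 of 44 (20.5%) against an average of 26.3%. Integrin alpha subunits had 4 of 18 (22.2%) against 18.0%, and beta subunits 2 of 8 (25.0%) against 20.1%. Adamts proteases had 5 of 19 (26.3%) against 25.7%, and Adamts-like genes 1 of 5 against 20.5%. For each of these 6 families the exact interval covered the average for its lengths. By class the averages were 26.3% for matrix chains (25.5% observed), 18.7% for integrin subunits (23.1%) and 16.8% for proteases and inhibitors (11.8%). These too lay inside the exact intervals.

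**Figure D3:**
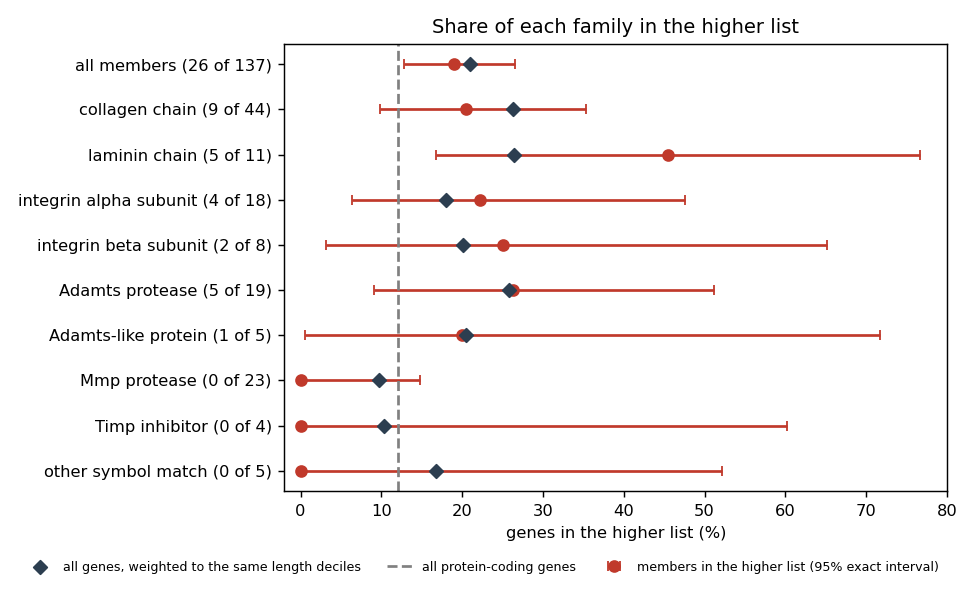
Percent of each family in the higher list (red points, with exact 95% intervals) and the count behind it. Diamonds give the share of all protein-coding genes weighted to the same length deciles, and the dashed line the 12.1% of all protein-coding genes. The diamond lies inside the interval in every row.

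Laminins are trimers of an alpha, a beta and a gamma chain. The 5 named chains were Lama1 (chromosome 17, 67697127 to 67822645), Lama3 (chromosome 18, 12333417 to 12583013), Lamb1 (chromosome 12, 31265146 to 31329644), Lamb3 and Lamc1 (both on chromosome 1). Lama1, Lamb1 and Lamc1 together form the laminin of early embryonic basement membranes, and all of its chains were in the higher list. The trimer of Lama3, Lamb1 and Lamc1 was the other one named in full, among 10 trimers with Lamc1 listed after the table had been seen. A further 5 of them had 2 chains named and 3 had 1. These counts are not independent of each other, since all 10 share Lamc1. As Lamc1 was itself in the higher list, each of the 10 had at least 1 named chain by construction. Trimers without Lamc1 were not listed, and no background share was computed for trimers.

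Lama3 and Lamb3 are chains of epithelial laminin at hemidesmosomes. Lama5 (49.5 kb), a main alpha chain of mature epithelial basement membranes, was in neither list, nor were Lama2, Lama4, Lamb2 and Lamc3. Lama2, at 636 kb, was the longest member gene in neither list. Named and unnamed laminin chains thus overlapped in length.

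Collagen names came from 7 of the 27 collagen types annotated. Among the 6 basement membrane chains of type IV, Col4a1 (chromosome 8, 11198423 to 11312889) and Col4a2 (chromosome 8, 11312805 to 11449287) were in the higher list. These encode the chains of the most widespread collagen IV network. Col4a3, Col4a4, Col4a5 and Col4a6, the chains of more specialised basement membranes, were in neither list. Col4a5 and Col4a6 lie on the X chromosome, where 2.69% of all protein-coding genes were in the higher list.

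Col4a1 and Col4a2 are transcribed away from each other, and their annotations overlap by 85 bases. The stretch between the starts used for their RefSeq promoter windows is shown because a region there cannot be given to one gene rather than the other. It is chr8:11312805-11312826 on the plus strand of GRCm38.p6, 22 bases long, from RefSeq. The capitals mark its 4 CpG dinucleotides, the sites at which methylation is read.
Col4a1-Col4a2: agtgCGCGggCGgCGtctccaa
Their other neighbours, Irs2 and Rab20, were in the higher list too, so 4 genes in a row were named there.

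Outside type IV, the named collagens were non-fibrillar as well. None of the 11 fibrillar chains was in the higher list, including Col1a1, Col1a2 and Col3a1, the main collagens of connective tissue. The average for genes of their lengths would be 2.62 of 11 (23.8%). That lies inside the exact interval of 0 of 11, which reaches 28.5%. Col18a1 (chromosome 10, 77052178 to 77166530), a basement membrane collagen that is the source of endostatin, was in the higher list. So was Col17a1 (chromosome 19, 47646341 to 47692042), a transmembrane collagen of hemidesmosomes. Col17a1 was the shortest named member, at 45.7 kb. Col25a1 (chromosome 3, 130180358 to 130599884), a transmembrane collagen of neurons, was the longest named collagen, at 420 kb. Col9a1, a cartilage collagen that sits on fibril surfaces, and Col28a1, with von Willebrand factor type A domains, completed the list together with Col6a5 and Col6a6. For type IV 2 of 6 chains were named, against a length average of 2.31, and for the group of Col9a1 1 of 9 against 2.15. Transmembrane collagens had 2 of 4 against 1.29, the group of Col18a1 1 of 2 against 0.595, and that of collagen VI 3 of 7 against 1.58. The remaining groups had no named chain. The collagen groups were drawn up after the table had been seen. Differences between them were not tested, and the fibrillar count is a description.

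Col6a6 (chromosome 9, 105689417 to 105828246) and Col6a5 (chromosome 9, 105856070 to 105962463) encode alternative long chains of collagen VI. They are adjacent, 27.8 kb apart, and another such gene, Col6a4, follows in the same row and was in neither list. The neighbour on the other side, Pik3r4, was in both lists. The standard chains Col6a1, Col6a2 and Col6a3 were in neither. Of 23 pairs of members that are direct neighbours, 2 had both genes in the higher list (Col4a1 with Col4a2, Col6a6 with Col6a5), 3 had 1 and 18 had none. Those with none include the pairs within a row of 10 Mmp genes on chromosome 9. The share over all neighbouring pairs of genes was not computed, so these counts are a description.

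Among the receptors, the named alpha subunits were Itga6 (chromosome 2, 71786886 to 71858427), Itga4 (chromosome 2, 79255426 to 79333114), Itgav (chromosome 2, 83722303 to 83806917) and Itga11 (chromosome 9, 62677855 to 62783979). Itga6 is part of laminin receptors, Itga4 binds fibronectin and Vcam1, and Itga11 binds fibrillar collagen. Itgav pairs with 5 beta subunits and binds ligands with an RGD motif, such as vitronectin and fibronectin. The named beta subunits were Itgb5 (chromosome 16, 33829665 to 33949338) and Itgb6 (chromosome 2, 60598292 to 60722603). Itgb6 is an epithelial subunit whose dimer with Itgav activates latent TGF-beta, and Itgb5 with Itgav binds vitronectin.

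Both named beta subunits are partners of Itgav alone. Of the 24 heterodimers, 2 therefore had both subunit genes in the higher list, Itgav with Itgb5 and Itgav with Itgb6. Another 8 had 1 and 14 had neither. These counts are not independent of each other, since many pairs share a subunit, and no background share was computed for pairs. Itgb1 (47.9 kb), the common partner of most alpha subunits, was in neither list, and neither was Itgb4 (33.7 kb), which pairs with Itga6 in hemidesmosomes. Itgb3, Itgb7 and Itgb8, partners of Itgav or Itga4, were in neither as well. The leukocyte subunits Itgal, Itgam, Itgax, Itgad and Itgb2 were also in neither list. Itga9 (294 kb), Itga8 (195 kb) and Itga1 (144 kb) were longer than every named alpha subunit and were in neither list.

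**Figure D4:**
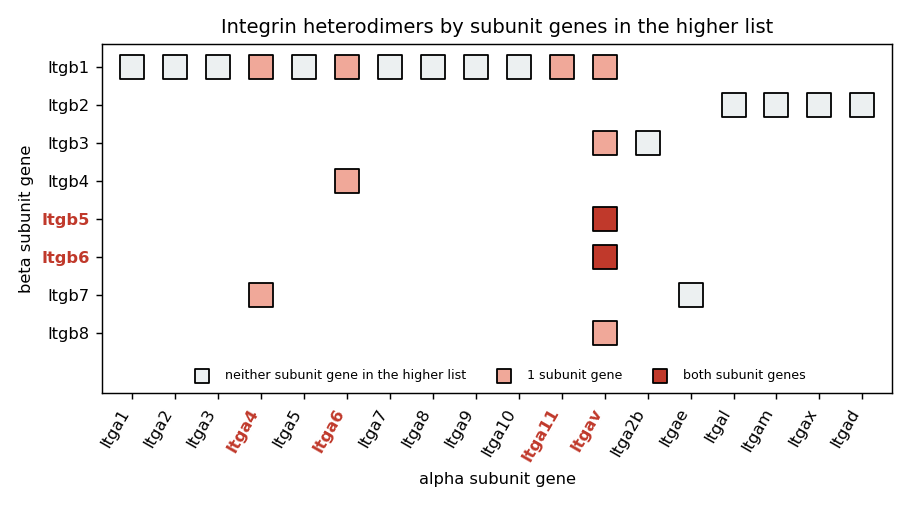
Integrin heterodimers by alpha subunit gene (horizontal) and beta subunit gene (vertical), 1 square for each of the 24 pairs. Square colour gives how many subunit genes were in the higher list, and names in red are those in it. Both dark squares lie in the Itgav column, the only column in which Itgb5 and Itgb6 have a pair.

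The named proteases were Adamts3 (chromosome 5, 89673841 to 89883668), Adamts16 (chromosome 13, 70727798 to 70841845), Adamts17 (chromosome 7, 66839699 to 67153171), Adamts19 (chromosome 18, 58835992 to 59053682) and Adamts20 (chromosome 15, 94268314 to 94432074). Adamts3 removes the amino-terminal propeptide of procollagen and takes part in activating Vegfc. Adamts20 cuts versican and is known in mice for the belted coat. Adamts17 is known in humans for a connective tissue disorder of the fibrillin microfibril, and Adamts19 for heart valve disease. All 5 were in the longest decile, with lengths of 114 to 313 kb. That decile also held 5 Adamts genes in neither list, namely Adamts2, Adamts6, Adamts9, Adamts12 and Adamts18, at 152 to 284 kb.

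Adamts16 lies 90.0 kb from its neighbour Ice1 and, on the other side, 1116 kb from Irx1, a homeobox gene. Both neighbours were also in the higher list. Adamtsl1 (chromosome 4, 85513852 to 86428390) was the longest named member, at 915 kb, and encodes a protein that resembles Adamts enzymes but lacks their catalytic part. Adamtsl2, Adamtsl3, Adamtsl4 and Adamtsl5 were in neither list.

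The Mmp genes were short, with a median of 12.7 kb. The average for genes of their lengths was 9.73%, or 2.24 of 23, and the interval of the observed 0 reached 14.8%. In neither list were the gelatinases Mmp2 and Mmp9, the membrane-bound Mmp14 and the row of 10 Mmp genes on chromosome 9. Mmp16 is the one Mmp gene in the longest decile, at 264 kb, and it was in neither list. Timp1, Timp2, Timp3 and Timp4 had lengths of 4.57 to 54.4 kb, where the average was 10.3%, or 0.413 of 4.

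For 3 of the named genes, the 250 bases before the annotated start are printed to give the density of CpG there. Each is the longest named collagen, integrin alpha or integrin beta gene whose RefSeq window (GRCm38.p6) overlaps no annotated protein-coding gene. This condition was set after the windows had been seen. The deposited table does not place any region in them. Capitals mark CpG, read 5′ to 3′ on the strand of the gene, and only the motif CG was counted, which is its own complement. The windows are chr10:77166531-77166780 (minus strand) for Col18a1, chr9:62677605-62677854 (plus strand) for Itga11 and chr2:60722604-60722853 (minus strand) for Itgb6.
Col18a1: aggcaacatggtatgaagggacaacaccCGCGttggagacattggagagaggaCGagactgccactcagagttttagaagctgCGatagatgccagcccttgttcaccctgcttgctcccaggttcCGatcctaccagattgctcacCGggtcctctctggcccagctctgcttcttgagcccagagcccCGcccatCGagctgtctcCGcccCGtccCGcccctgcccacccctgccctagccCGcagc
Itga11: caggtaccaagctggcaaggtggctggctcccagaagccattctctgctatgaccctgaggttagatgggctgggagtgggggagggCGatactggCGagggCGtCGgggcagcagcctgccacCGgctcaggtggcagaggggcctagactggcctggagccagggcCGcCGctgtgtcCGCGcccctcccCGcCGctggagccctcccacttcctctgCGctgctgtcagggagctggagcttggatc
Itgb6: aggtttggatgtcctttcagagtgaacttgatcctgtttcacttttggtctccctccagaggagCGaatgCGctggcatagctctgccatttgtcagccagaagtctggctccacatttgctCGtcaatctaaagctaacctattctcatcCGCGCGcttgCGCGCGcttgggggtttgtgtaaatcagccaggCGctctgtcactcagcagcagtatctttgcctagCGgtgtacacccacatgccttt
Col18a1 and Itga11 had 12 CpG each in these windows, and Itgb6 had 11. Over the windows before the outermost listed start of 27025 genes, the median was 6 and the middle 50% ran from 2 to 16, and 91.7% held at least 1. All 3 thus lay between the median and the upper quartile. A comparison of CpG density between named and other members was void, because 98 of the 137 members (71.5%) had a window.

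Neighbours of the named members were often named too. Of the 26, 17 (65.4%, interval 44.3 to 82.8%) had at least 1 directly neighbouring protein-coding gene in the higher list. Among all protein-coding genes in that list the share was 51.9%. For members outside the higher list it was 27.0% (30 of 111), and for all genes outside it 17.6%. Whether a run of names stands for a single region or several was not tested, since the table places none.

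Further genes of matrix and adhesion, taken from lists that were written with earlier results of these data known, were named as follows. Of 34 focal adhesion genes, which link integrins to actin, 13 were in the higher list (38.2%, interval 22.2 to 56.4%), against an average of 22.0% for genes of their lengths. The first 10 by alphabet were Actn1, Bcar1, Dock1, Fyn, Kank1, Lims1, Nedd9, Parvb, Parvg and Ptk2, the last of which encodes focal adhesion kinase. None of the 34 was in the lower list. Of 48 other matrix genes 13 were in the higher list (27.1%, interval 15.3 to 41.8%), against 17.6%, and 0 in the lower list. They included Nid2 and Hspg2, which tie laminin to collagen IV, and Fras1, Frem1 and Frem2, whose proteins form a complex at epithelial basement membranes, together with Emilin1, Fbln2, Fbn1, Fbn2 and Fmod. For the focal adhesion genes the lower end of the interval, which treats genes as independent, lay just above the length average.

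Of 25 genes for enzymes and helpers of collagen processing 0 were in the higher list (interval 0 to 13.7%), against an average of 15.0%, and 1 was in the lower list, Plod2, a lysyl hydroxylase (4% against 1.91% for their lengths). Differences between these lists were not tested. Of 23 other matrix receptor genes 5 were in the higher list (21.7% against 20.1%), namely the glypicans Gpc1, Gpc5 and Gpc6 and the sarcoglycans Sgca and Sgce. The lower list held 3 of these 23: Ddr1, a collagen receptor kinase, Gpc3 and, in both lists, Gpc6. That is 13.0% (interval 2.78 to 33.6%), against 1.51% of all protein-coding genes and 2.55% for genes of their lengths. The lower end of this interval lay just above the length average. For the collagen processing genes in the higher list the upper end lay just below theirs. Of 27 other metalloprotease and inhibitor genes 3 were in the higher list, Adam12, Adam19 and Ece1, and 0 in the lower list (11.1% against 16.0%).

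Many matrix genes are made chiefly by mesenchyme and vessels, cells that a sort could carry over. Among 18 mesenchyme markers the higher list held Barx1, Dlk1, Meox1, Tcf4 and Zeb2 (27.8%, interval 9.69 to 53.5%, against 12.4% for their lengths), and Dlk1, an imprinted gene, was in the lower list too (5.56% against 1.50%). Of 15 endothelial markers Erg, Flt1 and Sox17 were in the higher list (20% against 16.7% for their lengths) and Kdr in the lower (6.67% against 2.08%). Of 15 blood cell markers Spi1 was in the higher list (6.67% against 11.6%) and Lcp1 in the lower (6.67% against 1.44%). The part of other cells in the members' result was not tested, and genotype and the stage or mixture of cells sorted from each genotype cannot be told apart.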

How the data were processed

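Sorted eGFP-positive cells over 95% viable were lysed, and 75 ng of DNA was tagmented with Tn5, bisulfite-converted and amplified for 12 cycles, per the labels' protocols. Paired reads of 150 bp were sequenced. Trim Galore and the builds mm10 and GRCm38 are named in the submitters' processing notes. For the aligner, region caller, thresholds, coverage minimum and nearest-gene rule, nothing is given in the sources used here. Incomplete conversion, PCR duplicates and uneven insertion of Tn5 can alter methylation calls. The authors' deposited table holds gene names without a unit: 429 for lower methylation and 3230 for higher methylation, whose later columns have blank headers and carry on its alphabetical order.

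Ignoring case, names were matched to 49997 RefSeq genes of GRCm38.p6 by symbol, gene ID or unique older symbol (406 and 3145 matched), with all 26 named members matched by current symbol. Coordinates are those of genes, 1-based. Shares were computed in Python 3.11.15 with SciPy 1.17.1 (exact Clopper-Pearson 95% intervals, which treat genes as independent and cover counting error only). The average for genes of like length gives each gene the share of its length decile among protein-coding genes of all nuclear chromosomes. Its calculation was checked on simulated calls drawn at a fixed rate per length decile. That check could not tell whether deciles are fine enough for these data. No test between genotypes was possible with 1 library each. The rule for named genes takes every member in either list, then missing chains, integrin partners and Timp genes, and up to 10 genes of each other list by alphabet; other genes named were chosen after their values were seen. Printed promoter windows depart from the rule where the longest gene had none free of annotated genes, and windows on chromosome 18 were left out. Of the mesenchyme, endothelial and blood cell markers all that were in a list are named. The planned promoter comparison was void. The members and lists were chosen with earlier results of these data known. Alternatives covered name matching, the member set, chromosomes, genes in both lists, gene length, territory and number of bins. The values of 1 member are not reported here by name.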

Additional observations from a re-analysis of the deposited data

How the results depend on the processing

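Of 64 values under alternatives, 61 stayed within the exact interval of the reported share, but many of them could not have moved. A share of 0 in the lower list stays 0 when members are removed. The tally is therefore not a measure of robustness. Leaving out the longest length decile moved the share of members in the higher list from 19.0% to 10% (9 of 90), where fewer long genes remain. The share of proteases and inhibitors moved from 11.8% to 0% (0 of 38), because all 6 named ones were in that decile. Leaving out collagens, an alternative chosen after seeing the data, moved the matrix share from 25.5% to 45.5%, which is the laminins alone. Counting adjacent named members once, also chosen after, gave 17.8%. With territory (the gene and its flanks out to the middle of each gap) in place of gene length, the average for like genes was 16.9% instead of 21.0%, below the observed share instead of above it; with 20 length bins it stayed at 21.0%. In the lower list every alternative run left 0 members. Current symbols only, protein-coding members only and leaving out genes in both lists changed nothing, because they removed no member. No paired analysis was possible because there was a single library per genotype, so leaving out replicates could not be run either. Coverage per region is unknown, and at the rate of the lower list (2.64% of genes of these lengths) about 3.62 members would be named.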

Other observations

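The X chromosome held 4 members, Timp1, Itgb1bp2, Col4a6 and Col4a5, and 0 of them were named in either list, against 2.69% of its protein-coding genes in the higher list. Col4a6 (309 kb) and Col4a5 (214 kb) are both in the longest length decile. Chromosome 9 held the most members, 22, of which Itga11, Col6a6 and Col6a5 were in the higher list, where 12.6% of all its protein-coding genes were. Chromosome 11 held 10 members, of which 0 were named, against 12.7% of its genes. Chromosome 18 held 2 members, Lama3 and Adamts19, both in the higher list, against 16.0% of its genes. Both are in the longest length decile.

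Several of the longest members were in neither list. Besides Lama2 (636 kb) these were Col22a1 (355 kb), Col19a1 (330 kb) and Itgbl1 (319 kb). Col19a1 lies 4.94 kb from Col9a1 (75.2 kb), which was in the higher list.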
